A study of Rattus norvegicus with 28 samples.

Results

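INS-1 is an insulin-secreting cell line from a rat insulinoma that serves as a model of the pancreatic beta cell. The cells compared here carried the Med14 S983A change, a CRISPR knock-in that replaces a serine of Med14 with alanine and so removes the site that protein kinase A (PKA) phosphorylates. Med14 is the scaffold subunit of Mediator, the complex that joins enhancer-bound transcription factors to RNA polymerase II. The comparison is between Med14 S983A cells held for 16 h in 10 µM forskolin (FSK) and Med14 S983A cells held for 8 h in the same dose, 2 RNA-seq libraries at each time, 4 of the 28 libraries of the series. The members were taken by their labels and no measured value entered the choice. The other libraries hold WT INS-1 cells and Med14 S983A cells without agonist (CON) or after 1, 8 or 16 h of FSK or of exendin-4 (Ex-4, 10 nM), which activates the GLP-1 receptor, again 2 per group. All cells were moved to serum-free medium before treatment. The study made independent Med14 S983A lines, and the labels do not say which line, or whether separate cultures, gave each library. The p-values therefore measure the spread between these libraries only. CON is 1 time point, so it does not match the hours in serum-free medium of the 8 and 16 h groups. The Ex-4 groups do, and their own 16 h against 8 h values are given at the end.

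FSK activates adenylyl cyclase directly and raises cAMP in every cell, without a receptor. cAMP frees the catalytic subunits of PKA, which phosphorylate CREB, and CREB with its CRTC coactivators switches on a first wave of genes that includes AP-1 factors, NR4A receptors and the brakes on cAMP itself (phosphodiesterases, RGS proteins, salt-inducible kinases). In beta cells a later wave covers secretory capacity, lipid synthesis and metabolism. The contrast of 16 h against 8 h asks which of these gene groups were still moving in the mutant cells within the late phase of the response.

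Values are in TPM, a gene's share of the transcripts of its library after division by length. Differences are log2(TPM + 1) at 16 h minus 8 h, tested with limma across all 28 libraries and adjusted by Benjamini-Hochberg over 10275 genes whose mean over the series was 1 TPM or more. A gene is said to have risen or fallen only where the adjusted p was under 0.05 and the fold above 1.5. Of the 10275 genes, 2212 rose (21.5%) and 658 fell (6.40%) between 8 and 16 h, together 27.9%. The fold minimum set these counts more than the p-value did, since 7827 genes passed the adjusted p alone. Without regard to fold, both 16 h libraries lay above both 8 h libraries for 57.3% of genes and below them for 31.8%.

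**Figure D1:**
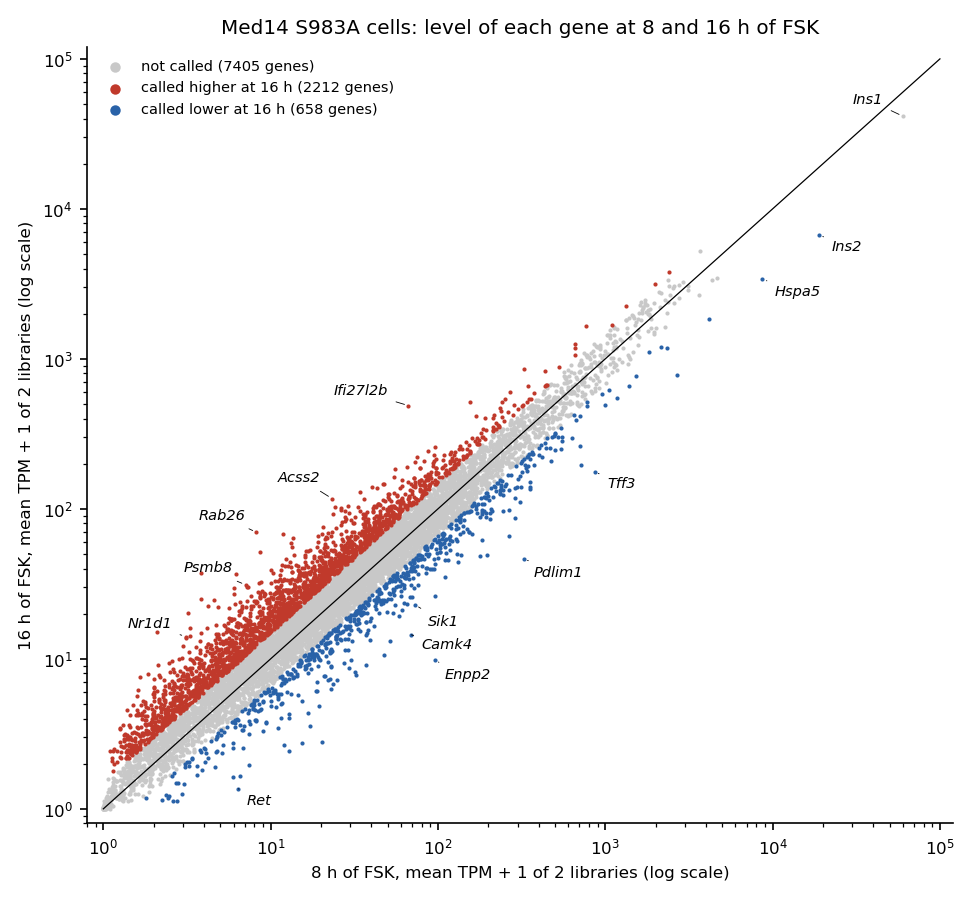
Mean TPM + 1 of each of 10275 genes in the 2 libraries at 8 h (x axis, log scale) and at 16 h (y axis, log scale) of FSK in Med14 S983A cells, with the line of equal level. Genes called higher lie above the line and genes called lower below it, with Ins2 and Hspa5 called lower at high levels and Ins1 below the line without being called.

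The balance of rises and falls depended on how the libraries were put on one scale. The median log2 difference of all genes was 0.15 in TPM, −0.03 after each library was centred on its median, and 0.45 after scaling on the ERCC spike-in RNAs, which were added per mass of total RNA. Centring gave 1410 higher (13.7%) and 1187 lower (11.6%), and ERCC scaling gave 4098 higher (39.9%) and 257 lower (2.5%), together 42.4%. Centring and ERCC scaling each move all genes of a library by nearly the same amount. A call in one direction in TPM could therefore not become a call in the other on ERCC, and none did. With genes sorted by mean TPM into 4 equal groups, the share that rose was 27.7% in the lowest group and 14.6% in the highest. The 1410 genes called higher after centring were called higher under all 3 scalings, and the 257 called lower on ERCC were called lower under all 3. This follows from the near-uniform shifts and is not separate evidence for these calls. Every change below is in TPM, thus relative to 0.15, and the main lists are also given on the ERCC scale. ERCC counts were 0.893 and 1.01% of fragments in the 8 h libraries and 0.785 and 0.736% in the 16 h libraries. In bulk RNA, fewer cells with a transcript and less of it per cell cannot be told apart.

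**Figure D2:**
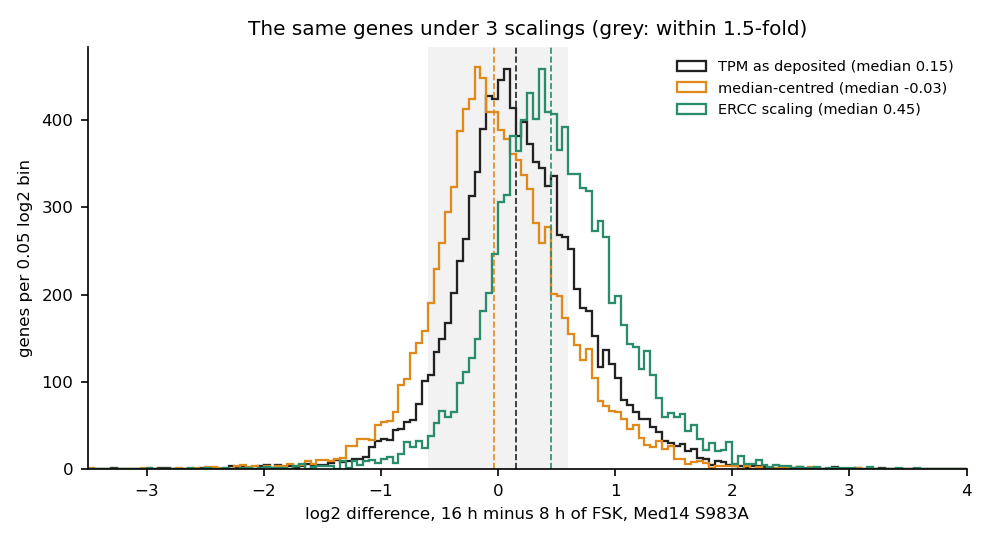
Number of genes in each 0.05-wide bin of the log2 difference, 16 h minus 8 h of FSK in Med14 S983A cells (x axis), for TPM as deposited, after median-centring and after ERCC scaling. The 3 curves have one shape and differ in position, with medians (dashed) of 0.15, −0.03 and 0.45, so the number past 1.5-fold (outside the grey band) changes with the scaling.

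Depth ranged from 38542741 to 51811415 fragments in 27 of the libraries, and replicate 2 of the 8 h FSK group had 83715750. Replicates of one group correlated at 0.998 to 0.999 in log2(TPM + 1), and the counts of every pair differed by more than sampling noise, so no library was a copy of another. Beta cell markers were present in all 4 libraries, with Ins1 between 41155 and 61034 TPM and Iapp between 2729 and 3184 TPM. The markers Mafa and G6pc2 were not matched in the table and were not analysed here. Sst, Rbp4, Ttr, Prss1, Cpb1, Pnlip, Col1a2 and Ptprc were listed at 0 in the 4 libraries. No delta, PP, endothelial or immune marker reached the level tested. Med14 itself was measured at 30.0 and 27.3 TPM at 8 h and at 19.6 and 21.2 TPM at 16 h, against 19.6 and 20.3 TPM in CON. The difference of −0.47 (SE 0.0671, limma adjusted p = 7.72e-07) did not pass the fold minimum in TPM. It was called lower after centring, and on the ERCC scale it was −0.15 and not called. In WT the difference in TPM was −0.24. The table counts reads per transcript and does not show the base change.

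The clearest fall was in the first-wave cAMP genes. Of 18 tested CREB targets and feedback genes, 13 fell and none rose, with a median of −0.94. Sik1, a salt-inducible kinase that restrains CRTC, was at 1.71 and 1.27 TPM in CON, 178 and 198 TPM at 1 h, 79.4 and 64.4 TPM at 8 h, and 23.4 and 20.4 TPM at 16 h. It was still far above CON at 16 h but lower than at 8 h in both libraries (log2 −1.66, SE 0.0998, limma adjusted p = 1.19e-13). Nr4a2, an orphan nuclear receptor, fell from 20.9 and 19.1 TPM to 7.12 and 6.26 TPM. Rgs2, which shortens G protein signalling, fell from 88.7 and 79 TPM to 37.8 and 35.2 TPM. The phosphodiesterase Pde10a, which degrades cAMP and cGMP, followed another course in the transcript kept. It had not risen at 1 h (6.66 and 7.86 TPM, against 7.71 and 7.85 TPM in CON), reached 79.8 and 71.2 TPM at 8 h, and was 30.1 TPM in both libraries at 16 h. The paper lists Pde10a among the genes induced at 1 h of Ex-4 in INS-1 cells. Only its most abundant transcript was kept here, so a rise of another transcript would not show. Crem, Nr4a1, Nr4a3, Per1, Dusp1, Pde4d, Pde3b, Irs2 and Egr1 also fell. The fall held on the ERCC scale for 10 of the 18 (median −0.62). In each library at 16 h the summed TPM of the list was above that in CON, at 574 and 577 TPM against 258 and 264 TPM.

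AP-1 factors, the FOS and JUN proteins that bind as dimers, showed the same direction. Of 8 tested members 5 fell (Fos, Fosb, Fosl1, Fosl2 and Junb) and none rose, with a median of −0.70. Fosl1 went from 9.14 and 7.59 TPM to 3.13 and 2.34 TPM (log2 −1.33, limma adjusted p = 4.04e-11), and Fos from 24.1 and 19.7 TPM to 10.6 and 9.59 TPM. Fosl2 was at 65.6 and 63.9 TPM at 8 h and at 37.9 and 33.8 TPM at 16 h, against 1.35 and 1.57 TPM in CON. On the ERCC scale 2 of the 8 were called lower and 2 higher (median −0.42), and Fos and Fosl1 were called lower under each scaling.

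Wider cAMP signalling genes moved both ways. Of 38 tested cyclases, kinase subunits, phosphodiesterases and regulators, 5 rose and 8 fell (median −0.09), against 21.5% and 6.40% of all genes. Pde4c, a cAMP-specific phosphodiesterase, rose from 0.943 and 1.06 TPM to 6.09 and 6.55 TPM and stayed below its CON level of 18.7 and 18.9 TPM. Pde1c, which is activated by calcium and calmodulin, fell from 66.8 TPM in both libraries to 25.6 and 24.2 TPM. The list was called 11 higher and 6 lower on the ERCC scale, with a median of 0.20.

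Genes that define the secretory beta cell included one of the most abundant falls. Ins2, 1 of the 2 rat insulin genes, was at 32620 and 37516 TPM in CON, 19393 and 18482 TPM at 8 h, and 6719 and 6724 TPM at 16 h (log2 −1.49, 95% confidence interval −1.61 to −1.38, limma adjusted p = 1.81e-17). The 16 h libraries were 2.82-fold below the 8 h libraries and lay far outside their spread. Ins1, the other insulin gene, was at 61034 and 59014 TPM at 8 h and at 41155 and 41811 TPM at 16 h. Its difference of −0.53 (limma adjusted p = 3.13e-09) stayed under the fold minimum, was called lower after centring, and left it near its CON level of 38834 and 42395 TPM. Ins1 and Ins2 are closely related genes, and reads from stretches that they share could be assigned to either. Together they made up 7.75 to 8.04% of all TPM at 8 h and 4.79 to 4.85% at 16 h.

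Of 16 tested genes for insulin, its processing and granule cargo, 5 fell and 1 rose (median −0.52, and −0.19 on the ERCC scale with the same counts of 5 and 1). Chga, the granule protein chromogranin A, went from 4082 and 4205 TPM to 1895 and 1786 TPM (log2 −1.17, limma adjusted p = 4.57e-18). Pcsk1, a convertase that cleaves proinsulin, went from 59.4 and 58.4 TPM to 27.7 and 26.9 TPM and had been 173 and 152 TPM in CON. The zinc transporter Slc30a8, which loads granules with zinc, went from 313 and 289 TPM to 154 and 158 TPM. Scg2, a secretogranin, also fell, and Ptprn, a granule membrane protein, was the member that rose.

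Among 16 tested beta cell transcription factors 5 fell and none rose, with a median of −0.34. They were Pdx1, Nkx2-2, Rfx6, Mnx1 and St18. Mnx1 dropped from 40.7 and 39.7 TPM to 16 and 15.2 TPM (log2 −1.31), and Nkx2-2 from 43.6 and 40.1 TPM to 22.9 and 22.2 TPM. Neurod1 was at 23.1 and 23 TPM at 8 h and 29.6 and 29.9 TPM at 16 h, which did not pass the fold minimum. On the ERCC scale 1 factor was called lower and 1 higher, so most of these calls depended on the scaling, and Mnx1 was the named factor called lower under each.

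Of 21 tested exocytosis and glucose sensing genes 7 fell and none rose, with a median of −0.47. Syt13, a synaptotagmin, fell from 47.6 and 41.1 TPM to 22 and 23.9 TPM (log2 −0.92) and had been 78.5 and 77.5 TPM in CON. Syt7, a calcium sensor of vesicle fusion, fell from 359 and 321 TPM to 225 and 214 TPM. The glucose transporter Slc2a2 fell from 42.9 and 42.1 TPM to 24.4 and 23.8 TPM. The calcium channel subunit Cacna1d and the vesicle priming factor Unc13a fell as well. On the ERCC scale 2 of the 21 were called lower and 2 higher.

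Peptide genes other than insulin were mostly at low levels, and 9 of the 22 listed were tested. Among them 5 fell (Cck, Cartpt, Gast, Penk and Scgn) and 1, Pomc, rose (median −0.63, 4 lower and 1 higher on the ERCC scale). Scgn encodes a calcium sensor of endocrine cells and not a peptide precursor, and the counts of the list include it. Its level was 1294 and 1125 TPM in CON, 268 and 265 TPM at 8 h, and 96.5 and 99.2 TPM at 16 h. Cartpt, the precursor of the CART peptide, fell from 82.2 and 95.3 TPM to 39.6 and 37.4 TPM but stayed above CON (10.9 and 11.6 TPM). Gcg, the glucagon precursor that marks alpha cells, was at 6.09 and 6.55 TPM in CON, and its levels at 8 h (102 and 110 TPM) and 16 h (113 and 101 TPM) overlapped (limma adjusted p = 0.861). The alpha cell genes Irx2 and Ttr were listed at 0 in the 4 libraries, and Irx1 was at or below 0.077 TPM.

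Most of the endoplasmic reticulum (ER) folding genes were above CON at 8 h and at 16 h of FSK, and some of them fell between those times. Beta cells load the ER with proinsulin, and when folding falls behind, the unfolded protein response raises chaperones and the machinery that returns misfolded proteins to the cytosol. Of 26 tested members 24 were called higher at 8 h than in CON, where 11.6% of all genes were called higher and 34.5% lower, and 21 were called higher at 16 h than in CON, where 12.2% were called higher and 33.3% in either direction. These contrasts share their 8 h or 16 h libraries with the comparison of 16 h against 8 h. Between 8 and 16 h 8 of the 26 fell, against 6.40% of all genes, and none rose, while 18 were not called (median −0.52, and −0.19 with 5 lower on the ERCC scale).

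Hspa5, the main ER chaperone (BiP), was at 1982 and 1816 TPM in CON, 8728 and 8666 TPM at 8 h, and 3500 and 3286 TPM at 16 h (log2 −1.36, 95% confidence interval −1.45 to −1.26, limma adjusted p = 1.95e-18). Herpud1, part of the ER degradation machinery, went from 739 and 679 TPM to 258 and 263 TPM. Derl3, which helps export misfolded proteins, went from 66.5 and 63.0 TPM to 21.8 and 22.4 TPM, just below CON (24.9 and 26.1 TPM). The abundant chaperones Hsp90b1 (4553 and 4707 TPM at 8 h, 3517 and 3372 TPM at 16 h) and Calr (4315 and 4394 TPM, then 3405 and 3280 TPM) moved by less than 1.5-fold. The remaining falls were of Dnajc3, Hyou1, Creld2, Sel1l and Edem1.

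The ER stress element is the promoter sequence through which ATF6 and NF-Y are known to act, and the cAMP response element (CRE) is the palindrome that CREB binds. The windows below are the called members of the ER and CREB lists whose promoter held the listed letters upstream of the start, printed because both lists fell and so that the letters can be read. Promoters are 250 bases before to 50 bases after each RefSeq start in GRCr8, the motif is in capitals, and bases run 5′ to 3′ on the strand of the gene. In Creld2 and Derl3 the element runs in the opposite direction.
Hspa5, chr3:38452958-38453006, plus strand: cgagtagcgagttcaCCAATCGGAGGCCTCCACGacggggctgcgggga
Dnajc3, chr15:102432519-102432567, plus strand: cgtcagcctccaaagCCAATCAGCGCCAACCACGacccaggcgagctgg
Creld2, chr7:121789224-121789272, plus strand: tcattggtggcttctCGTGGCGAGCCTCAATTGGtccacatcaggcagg
Derl3, chr20:12766586-12766634, minus strand: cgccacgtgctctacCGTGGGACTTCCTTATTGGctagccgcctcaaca
Dusp1, chr10:17184714-17184751, plus strand: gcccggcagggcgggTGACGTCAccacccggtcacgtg

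The element was searched on both strands as CCAAT and CCACG parted by any 9 bases and was in 21 of 27457 promoters (0.0765%). Promoters could be matched for 8467 of the 10275 tested genes, of which 15 held it (0.177%). They could be matched for 21 of the 26 ER members, of which 9 held it (42.9%). It was in 6 of 525 promoters of genes that fell (1.14%) and in 0 of 1821 promoters of genes that rose. Within the ER list the 9 members with it had a median of −0.55 and the 12 without it a median of −0.53, with 4 called lower in each. The CRE, TGACGTCA, was in 1.91% of all promoters, 3.41% of tested genes, 5.33% of genes that fell and 2.25% of genes that rose. Only 14 of the 18 CREB list members had a promoter, too few to read a share from. Of these, the 3 with a CRE had a median of −0.15 with 1 called lower, and the 11 without it a median of −1.06 with 9 called lower. A match is a run of letters in this window and was not tested as a binding site.

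Targets of ATF4, the factor of the integrated stress response, behaved less uniformly. Of 20 tested, 4 fell (Ddit3, Sesn2, Slc7a5 and Ppp1r15a) and 2 rose (Shmt2 and Pck2), with a median of −0.36. Ddit3, the transcription factor CHOP, was at 55.0 and 56.8 TPM in CON, 488 and 494 TPM at 8 h and 300 and 308 TPM at 16 h. Pck2, the mitochondrial phosphoenolpyruvate carboxykinase, went from 48.8 and 47.2 TPM to 89.8 and 94.3 TPM. On the ERCC scale 2 were higher and none lower, so the falls were not called there. Of 17 tRNA synthetases, which charge tRNAs with amino acids, 3 rose and 1 fell (median 0.02), near the 21.5% and 6.40% of all genes. Qars1 rose from 18.3 and 19.5 TPM to 46.1 and 46.9 TPM.

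Lipid genes moved in both directions. Of 25 genes for cholesterol synthesis and uptake, 6 fell and 4 rose (median −0.09, and 7 higher and 2 lower on the ERCC scale with a median of 0.24). Among all genes 6.40% fell and 21.5% rose, so the list had a larger share of falls and a smaller share of rises. Hmgcs1, the HMG-CoA synthase at the start of the pathway, went from 286 and 288 TPM to 118 and 117 TPM (log2 −1.28, limma adjusted p = 1.56e-16). Idi1, Sqle, Hsd17b7 and Stard4 also fell. Tm7sf2, a sterol reductase near the end of the pathway, rose from 32.7 and 33.6 TPM to 92.9 and 97.4 TPM, together with Pmvk and Ebp.

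In fatty acid synthesis and oxidation, rises outnumbered falls, but most genes were not called. Of 18 tested synthesis genes 6 rose, against 21.5% of all genes, and none fell (median 0.27, with 9 higher on the ERCC scale and 5 higher and 2 lower after centring). Acss2, which makes acetyl-CoA from acetate, rose from 22 and 22.5 TPM to 114 and 118 TPM, a 5.22-fold rise (log2 2.33, limma adjusted p = 8.53e-23). The desaturases Fads1 and Fads2 rose 2.46-fold and 2.03-fold, and Fasn, the fatty acid synthase, rose from 153 and 138 TPM to 275 and 285 TPM. Of 17 oxidation genes 7 rose and 1, Hadh, fell (median 0.52), and after centring 3 were higher and 1 lower. Acads, the short-chain acyl-CoA dehydrogenase, rose from 10.1 and 10.7 TPM to 26.2 and 25.6 TPM and remained below CON (41.2 and 44.6 TPM). Cpt1a, which admits fatty acids to mitochondria, was at 3.6 and 3.46 TPM and then 6.23 and 5.79 TPM, a call that was lost after centring.

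**Figure D3:**
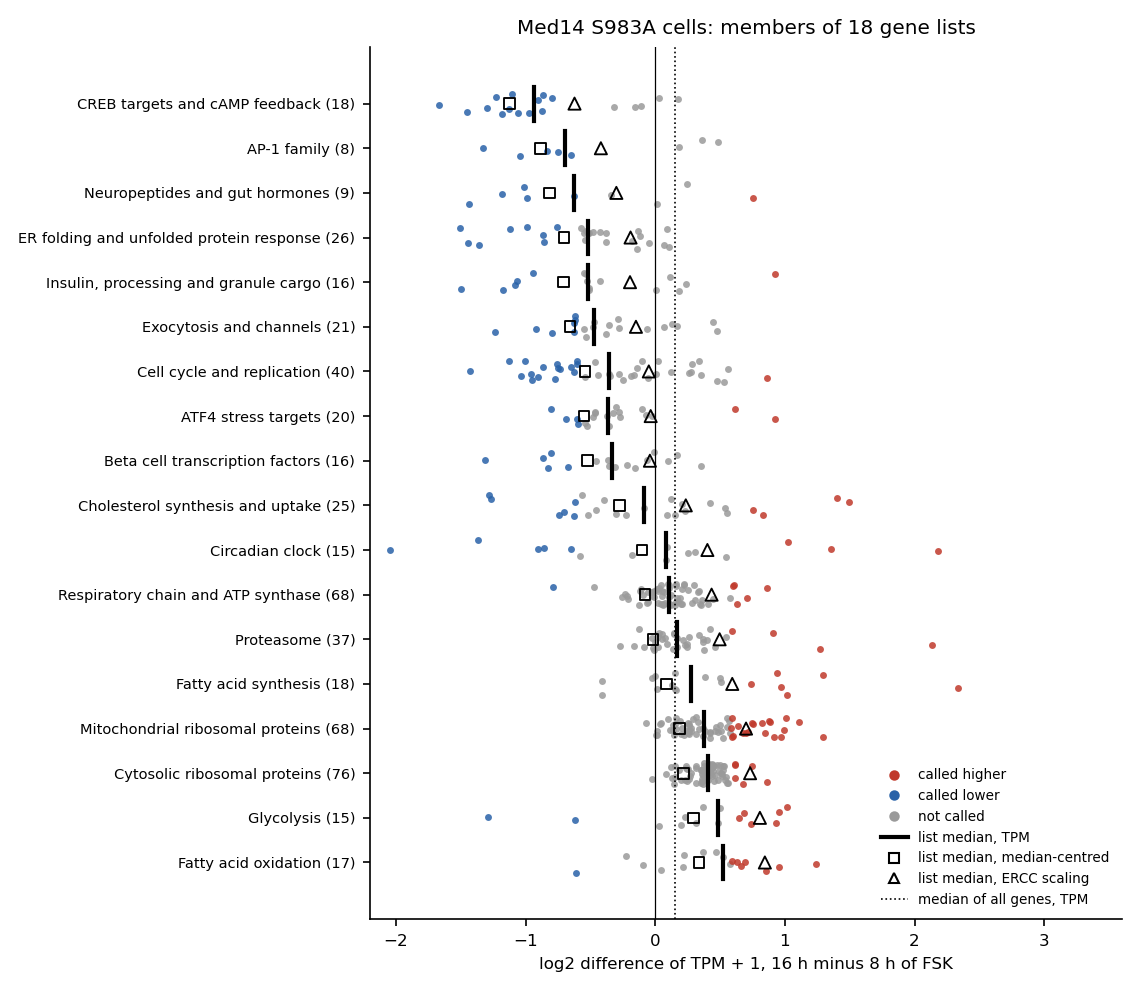
Log2 difference of TPM + 1, 16 h minus 8 h of FSK in Med14 S983A cells (x axis), for each tested member of 18 gene lists (number tested in brackets), coloured by call. The black bar is the list median in TPM, the square after centring and the triangle on the ERCC scale; CREB targets sit lowest (median −0.94) and fatty acid oxidation highest (median 0.52), while the medians of cholesterol genes lie on both sides of 0 (−0.09 in TPM, 0.24 on ERCC).

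Of 15 tested glycolysis genes 6 rose and 2 fell (median 0.48), against 21.5% and 6.40% of all genes. The counts depended on the scaling. After centring 3 were higher and 2 lower, where 13.7% and 11.6% of all genes were. On the ERCC scale 10 were higher and 1 lower. Pfkm, the phosphofructokinase of muscle type, rose from 58.9 and 61.3 TPM to 119 and 116 TPM, and Aldoa rose from 2370 and 2456 TPM to 3757 and 3795 TPM. Pfkfb2, which makes the activator of phosphofructokinase, fell from 38.4 and 35.5 TPM to 14.3 and 14.8 TPM. In the citric acid cycle 4 of 27 rose and 1 fell (median 0.02), a smaller share of rises than the 21.5% of all genes. Suclg2, a succinyl-CoA ligase subunit, had dropped from 94.5 and 83.5 TPM in CON to 25.4 and 28 TPM at 8 h and was at 78.0 and 85.6 TPM at 16 h. Idh2, the mitochondrial isocitrate dehydrogenase, went from 93.3 and 99.3 TPM to 208 and 219 TPM and was 313 and 298 TPM in CON. Of 68 respiratory chain and ATP synthase subunits 5 rose and 1 fell, with a median of 0.11 that was close to the 0.15 of all genes.

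Ribosomal protein genes had small positive differences, few of which were called. The median of 76 cytosolic ribosomal proteins was 0.40, and 75 lay above 0, but only 6 rose, a smaller share than the 21.5% of all genes, and none fell. After centring 1 was called, Rps27l, and on the ERCC scale 61 were. Rpl32 went from 313 and 332 TPM to 480 and 507 TPM, and Rplp0 from 3737 and 3672 TPM to 5157 and 5289 TPM, the latter under the fold minimum. The summed TPM of all 81 cytosolic ribosomal protein genes listed, tested or not, was 79689 and 82118 at 8 h and 103548 and 104965 at 16 h. Both 16 h libraries were thus above both 8 h libraries, as they were for 57.3% of all genes. Ribosomal protein genes have many pseudogenes, so their levels are uncertain where reads were shared. Mitochondrial ribosomal proteins gave 20 of 68 higher and none lower (median 0.38), and 10 of them stayed called after centring, where 13.7% of all genes were higher, so the count was then near that of all genes. Mrpl34 rose from 32.8 and 36.2 TPM to 84.0 and 88.5 TPM (log2 1.3, limma adjusted p = 8.25e-16).

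Of 37 proteasome subunits 4 rose and none fell, with a median of 0.17 close to that of all genes and a smaller share of rises than the 21.5% of all genes. They included the immunoproteasome subunits Psmb8, Psmb9 and Psmb10, which replace the standard catalytic subunits, and the structural subunit Psmb3. Psmb8 rose from 6.49 and 5.69 TPM to 28.1 and 32.1 TPM (log2 2.13, limma adjusted p = 2.83e-16), above its CON level of 8.79 and 8.51 TPM. Psmb9 rose from 8.05 and 7.05 TPM to 18.8 and 20.5 TPM and Psmb10 from 48.9 and 46.4 TPM to 87.3 and 93.7 TPM, against 22.8 and 23.9 TPM and 92 and 89.1 TPM in CON. Of 13 tested interferon-stimulated genes 3 rose (Ifi27l2b, Irf1 and Mx2) and none fell, with a median of 0.29, a share of rises near the 21.5% of all genes. Ifi27l2b was at 3.78 and 5.45 TPM in CON, 65.2 and 66.1 TPM at 8 h and 471 and 502 TPM at 16 h (log2 2.87). Of 15 cytosolic heat shock genes, whose products fold proteins in the cytosol, Hspa8, Hsph1 and Hsp90ab1 rose and none fell (median 0.11), again near the share of all genes. Hspa8 rose from 653 and 671 TPM to 1164 and 1192 TPM.

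Of 40 tested cell cycle genes 16 fell, against 6.40% of all genes, 1, Ccne1, rose and 23 were not called (median −0.36). Ccnd1, a D-type cyclin that drives entry into the cycle, was at 0.071 and 0.086 TPM in CON, 54.3 and 52.0 TPM at 8 h and 19.2 and 19 TPM at 16 h. Among mitotic genes, the kinase Aurkb fell from 113 and 109 TPM to 50.8 and 49.2 TPM, and the spindle motor Kif11 fell from 95.6 and 92.3 TPM to 44.4 and 46.3 TPM. Mki67, Top2a, Cdk1, Plk1, Bub1, Birc5 and Ccna2 were also called lower, with the replication genes Mcm5, Cdc6, Pola1, Rrm1 and Rrm2 and the cyclin-dependent kinase inhibitor Cdkn1b, which restrains the cycle. On the ERCC scale 6 were lower and 8 higher (median −0.05), and Ccnd1, Aurkb and Kif11 were called lower there too.

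Clock genes moved in both directions, with 3 of 15 higher and 5 lower, against 21.5% and 6.40% of all genes. Nr1d1, the repressor REV-ERBα, was at 24.9 and 26.3 TPM in CON, 1.98 and 2.23 TPM at 8 h and 12.2 and 14 TPM at 16 h (log2 2.18), and Nr1d2 and Npas2 rose with it. Per2 fell from 34.1 and 28.6 TPM to 6.84 and 6.79 TPM and Cry2 from 135 and 122 TPM to 50.8 and 47.2 TPM. Per1, Cry1 and Nfil3 fell as well. Nr1d1, Per2 and Cry2 kept their calls under each scaling. Of 9 genes in the list of Txnip, arrestin domain and ChREBP targets, 4 rose (Txnip, Arrdc3, Pklr and Gpd1) and none fell. The same 21.5% and 6.40% of all genes apply. After centring 4 of the 9 were higher and 1 lower, and on the ERCC scale 5 were higher and none lower. Pklr, the pyruvate kinase of liver and beta cells, rose from 15.3 TPM in both libraries to 42.1 and 40.9 TPM, against 101 and 104 TPM in CON.

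The remaining lists changed in few members, and their counts stand against 21.5% of all genes that rose and 6.40% that fell. Of 21 tested NRF2 antioxidant targets 3 rose and 2 fell. Hmox1, the inducible heme oxygenase, fell from 188 and 178 TPM to 97.2 and 98.2 TPM and Ftl1 from 2196 and 2093 TPM to 1183 and 1227 TPM. Of 13 apoptosis regulators Bax, Bad and Bbc3 rose and none fell, a share of rises near that of all genes. Of 9 ID and TGF-beta targets Id4 and Id3 fell and Tgif1 rose. Id4, an inhibitor of helix-loop-helix factors, fell from 278 and 297 TPM to 88.2 and 83.4 TPM. Of 30 tested Mediator subunits, Med11, Med12, Med16 and Med29 rose and none fell (median 0.18), a smaller share of rises than that of all genes. Only Med12 (5.06 and 4.42 TPM, then 9.45 and 10.4 TPM) stayed called after centring. Of 30 genes that the study names, partly on these libraries and so not independent evidence, 13 fell and 5 rose. Of 4 tested acinar markers Rbpjl and Ctrb1 rose and Bhlha15 fell. The summed level of all 12 acinar markers listed was 228 to 232 TPM at 8 h and 175 to 178 TPM at 16 h. Their part in the results was not tested.

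With genes under a mean of 10 TPM set aside, the largest rise was that of Rab26, a small GTPase of secretory granules (NM_133580, rn6 chromosome 10, 13894271 to 13897488). It was at 37 and 36.1 TPM in CON, 7.31 and 7.14 TPM at 8 h and 67.8 and 69.8 TPM at 16 h, a 9.52-fold rise (log2 3.08, 95% confidence interval 2.93 to 3.24, limma adjusted p = 5.36e-21). The tetraspanin gene Tspan17 dropped from 25.2 and 26.2 TPM in CON to 2.84 and 2.83 TPM at 8 h and was back at 24.9 and 23.4 TPM at 16 h. Acd, a shelterin protein of telomeres, did the same, with 69.4 and 71.2 TPM in CON, 12 and 13.3 TPM at 8 h and 62.7 and 63.3 TPM at 16 h. Plppr5, Rangrf, Tmem150a, Mettl23, Fahd2a, Slc44a3 and Dhrs1, with Ifi27l2b and Acss2 above, completed the 12 largest rises. Of these 12, Rab26, Plppr5, Rangrf, Tmem150a, Mettl23, Ifi27l2b and Acss2 had higher 16 h than CON levels in both libraries.

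The largest fall was that of Enpp2, the secreted lysophospholipase D autotaxin (NM_057104, rn6 chromosome 7, 94479931 to 94563086). It was at 157 and 147 TPM in CON, 93.6 and 95.3 TPM at 8 h and 9.02 and 8.51 TPM at 16 h, a 10.8-fold fall (log2 −3.29, limma adjusted p = 1.63e-24). Tff3, a trefoil peptide, took the same course from 1575 and 1586 TPM in CON to 865 and 858 TPM and then 179 and 173 TPM, as did Ssc5d. Other genes had peaked at 8 h. Pdlim1, an actin-associated protein, was at 103 and 107 TPM in CON, 326 and 322 TPM at 8 h and 47.4 and 43.6 TPM at 16 h. Camk4, a calcium and calmodulin-dependent kinase that can phosphorylate CREB, was at 7.20 and 6.62, then 66.9 and 69.9, then 13.2 and 13.7 TPM. The receptor tyrosine kinase Ret was below 0.6 TPM in CON and at 1 h, 6.15 and 4.69 TPM at 8 h and 0.391 and 0.330 TPM at 16 h. Itpkb, Per2, Pak3, Cntfr, Slc26a2 and Sv2c made up the rest of the 12.

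**Figure D4:**
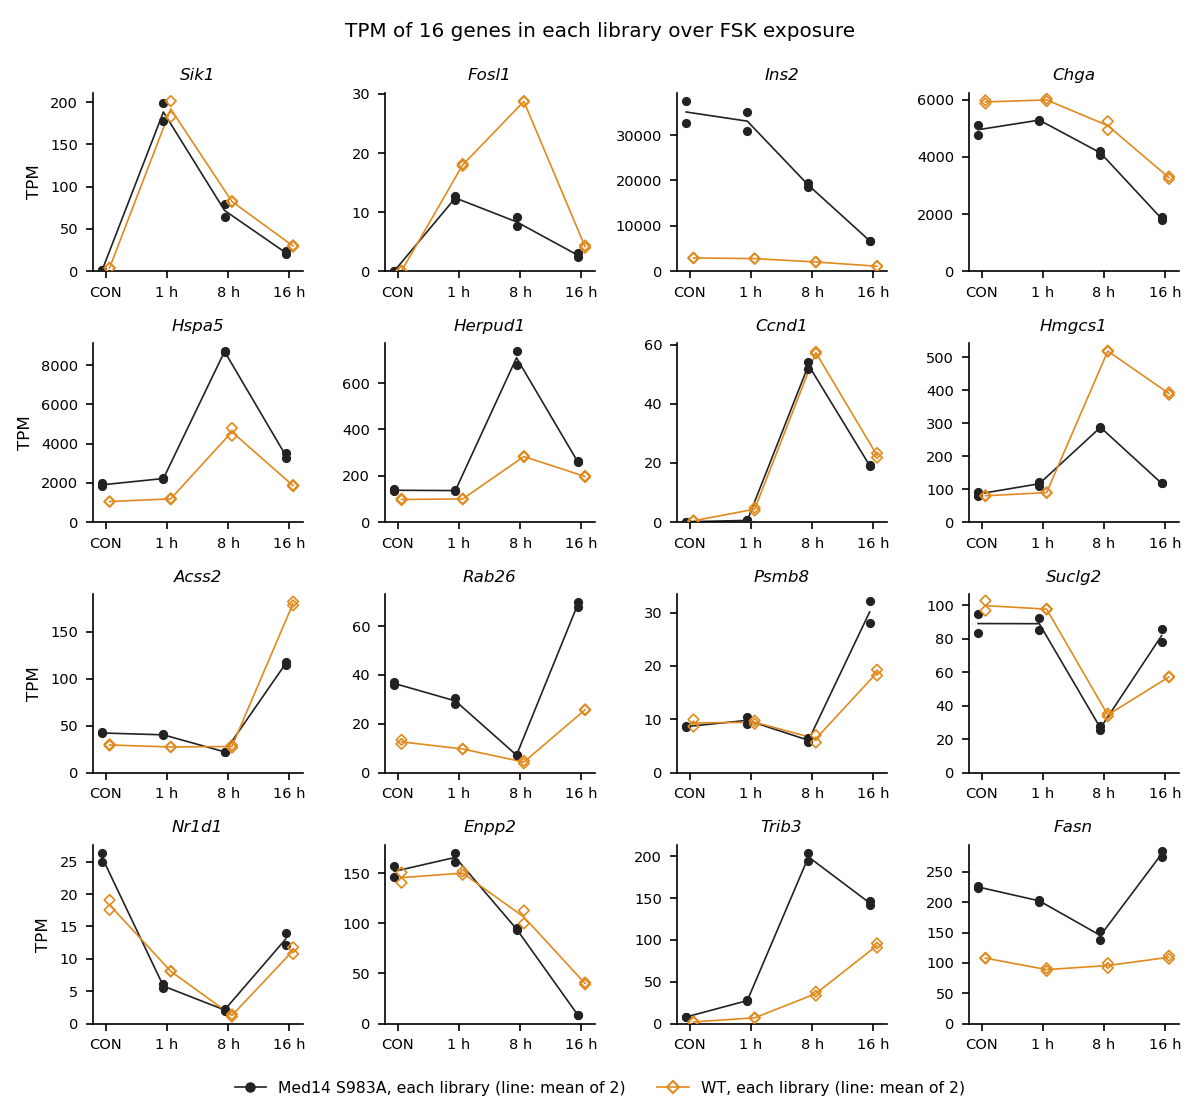
TPM of 16 genes (y axes from 0) in each library at CON and after 1, 8 and 16 h of FSK, with filled circles for Med14 S983A and open diamonds for WT and lines through the means of 2. In Med14 S983A cells Sik1, Hspa5 and Ccnd1 peak before 16 h, Rab26, Suclg2 and Nr1d1 dip at 8 h and rise again, and Ins2 and Enpp2 are lower at 8 h than in CON and lowest at 16 h.

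The level in WT cells gave a second view of the same interval, in libraries that the Med14 S983A contrast does not use. In WT 1434 genes rose (14%) and 372 fell (3.62%) between 8 and 16 h of FSK. Of the 2212 genes that rose in Med14 S983A cells 1083 rose in WT (49.0% of the first list, 75.5% of the second), and of the 658 that fell 256 fell in WT (38.9% and 68.8%). Only 2 genes were called in opposite directions. The 2212 genes had a median of 0.86 in Med14 S983A cells, where it was part of their choice, and 0.58 in WT, and the 658 genes had medians of −0.81 and −0.47.

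The difference of the 2 contrasts, Med14 S983A minus WT, was called for 934 genes (9.09%), 557 positive (5.42%) and 377 negative (3.67%). A positive difference means a larger rise or a smaller fall in Med14 S983A cells. Of 20 ATF4 targets 10 were negative and none positive, against 3.67% negative among all genes. Their median was −0.36 in Med14 S983A cells and 0.35 in WT, where 7 rose and none fell. Ddit3 fell in Med14 S983A cells (above) and in WT was at 188 and 193 TPM at 8 h and 269 and 280 TPM at 16 h (difference −1.21, limma adjusted p = 8.1e-11). The pseudokinase gene Trib3 was at 204 and 195 TPM, then 142 and 146 TPM in Med14 S983A cells, and at 33.4 and 38.1 TPM, then 90.9 and 95.9 TPM in WT. Thus the levels at 8 h were higher in Med14 S983A cells than at either time in WT for both genes. Sesn2, which restrains mTORC1, differed by −1.14.

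Cholesterol genes gave 10 negative and 1 positive differences among 25. In WT 8 of them rose and 1 fell between 8 and 16 h (median 0.26). Hmgcs1 in WT was at 520 and 517 TPM at 8 h and 387 and 393 TPM at 16 h, above both times in Med14 S983A cells (difference −0.87, limma adjusted p = 2.6e-09). Cytosolic ribosomal proteins gave 17 positive and none negative among 76, with a median of −0.08 in WT. Rplp0 in WT was at 5653 and 5631 TPM and then 5200 and 5103 TPM (difference 0.63).

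Ins2 fell further in Med14 S983A cells than in WT (difference −0.62, limma adjusted p = 8.6e-07), from a level that was higher in every library at each time. WT held 1980 and 2112 TPM at 8 h and 1154 and 1080 TPM at 16 h, with 2885 and 2991 TPM in CON. Since lines were edited and grown from single clones, the genotype and the history of a line cannot be told apart. The differences of Chga (−0.53), Pcsk1 (−0.28), Mnx1 (−0.57) and Syt13 (−0.45) did not pass the fold minimum. That of Slc30a8 (−0.84) did. Among AP-1 genes Fosl1 and Fosb had positive differences (1.20 and 1.64), having been higher in WT at 8 h (Fosl1 28.7 and 28.8 TPM, Fosb 24.2 and 23.5 TPM) and fallen further there, and Jun (−1.15) and Atf3 (−1.16) had negative ones. Hspa5 had values of −1.36 and −1.31, with a difference of −0.05 (limma adjusted p = 0.54).

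Ex-4 held over the same interval moved far fewer genes in Med14 S983A cells. Between 8 and 16 h of Ex-4 128 genes rose (1.25%) and 279 fell (2.72%), together 3.96%, and the median of all genes was −0.03. The FSK contrast shared 67 of its 2212 rises with it (3.03%, and 52.3% of the Ex-4 list) and 121 of its 658 falls (18.4% and 43.4%). The difference, FSK minus Ex-4, was called for 2668 genes (26%), 2220 positive (21.6%) and 448 negative (4.36%). CREB targets gave 13 negative of 18 and none positive. Sik1 under Ex-4 was at 10.2 and 12.3 TPM at 8 h and 9.16 and 7.32 TPM at 16 h, already below the 16 h level under FSK, and none of the 18 was called between the Ex-4 times. ATF4 targets gave 17 negative of 20, with 9 rising under Ex-4 (median 0.54).

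Tspan17, which dipped at 8 h of FSK, was below CON at both times of Ex-4 and changed little between them, at 16.5 and 17 TPM and 17.2 and 16.8 TPM at 8 and 16 h of Ex-4 (difference 2.69, limma adjusted p = 2.5e-18). Of the mitochondrial ribosomal proteins 24 of 68 had a positive difference and none a negative one, against 21.6% and 4.36% of all genes. None of them was called between the Ex-4 times. Cell cycle and ER folding genes also fell in part under Ex-4, where 2.72% of all genes fell. Of the cell cycle genes 18 of 40 fell and none rose, with a median of −0.53. The difference, FSK minus Ex-4, was positive for 8 and negative for 2, shares near those of all genes. Aurkb was at 134 TPM in both libraries at 8 h of Ex-4 and at 69.2 and 72.8 TPM at 16 h. Of the ER folding genes 5 of 26 fell and none rose, among them Hspa5 (−0.60) and Derl3 (36.4 and 37.2 TPM, then 14.3 and 13.3 TPM), and Nr1d1 rose (5.82 and 5.24 TPM, then 26.5 and 27.8 TPM). The doses of FSK and Ex-4 were 10 µM and 10 nM and are not matched in effect.

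**Figure D5:**
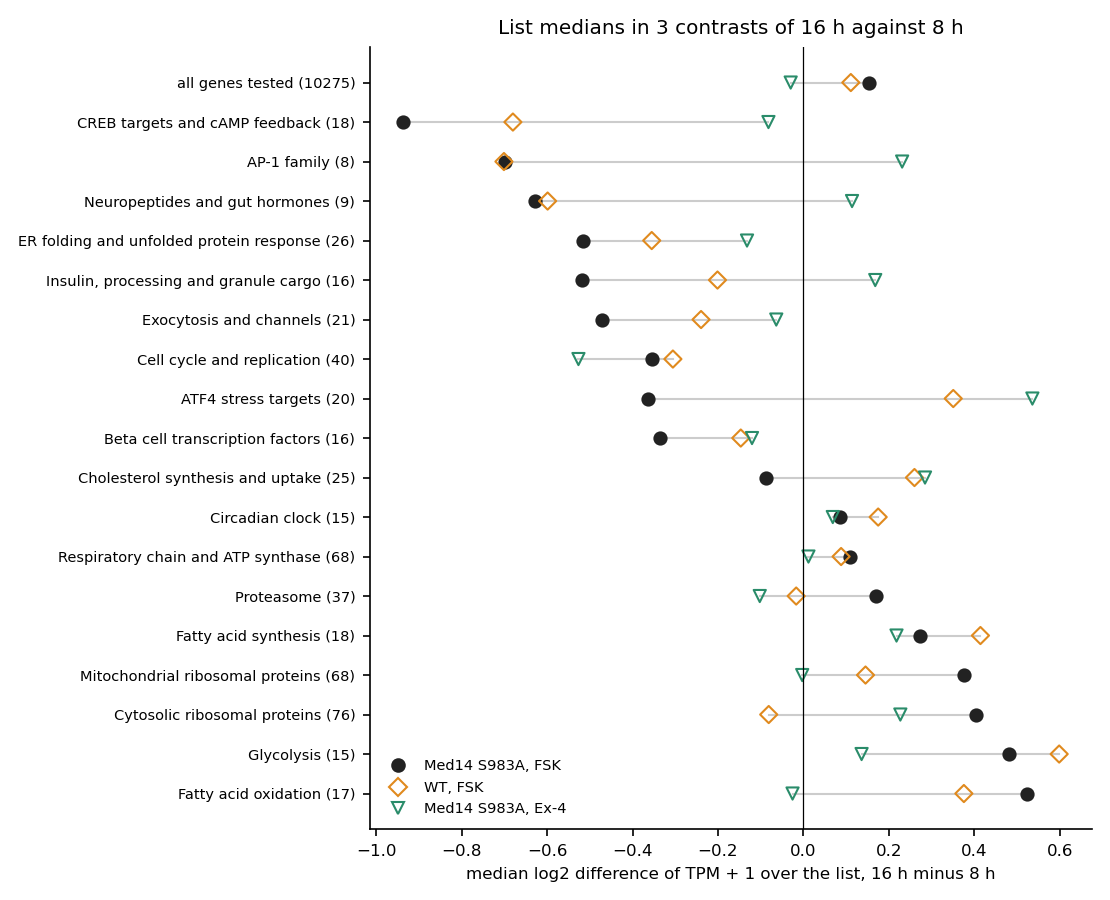
Median log2 difference of TPM + 1, 16 h minus 8 h (x axis), over 18 gene lists and over all genes, for FSK in Med14 S983A cells (circles), FSK in WT (diamonds) and Ex-4 in Med14 S983A cells (triangles). ATF4 targets are on opposite sides of 0 in Med14 S983A and WT (−0.36 and 0.35), cytosolic ribosomal proteins likewise (0.40 and −0.08), and cell cycle genes have their lowest median under Ex-4 (−0.53).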

How the data were processed

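RNA was sequenced from WT and Med14 S983A INS-1 cells in 14 groups of 2 libraries, with NEBNext Ultra II Directional libraries, paired-end reads and ERCC spike-in RNA added to total RNA. Per the labels and the study's methods, the authors mapped reads to rn6 with STAR 2.5.3a and quantified TPM over RefSeq exons with HOMER 4.11.1. The TPM values were deposited per transcript, and the deposited ERCC counts are whole reads per spike-in. The 92 ERCC rows were left out and each symbol was represented by its most abundant transcript, which left 17455 symbols.

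Differences were tested with limma 3.58.1 (R 4.3.3) on log2(TPM + 1), with a trend and 1 mean per group (14 residual degrees of freedom), over the 10275 genes averaging 1 TPM or more, and adjusted by Benjamini-Hochberg. Fold changes of low genes are understated on this scale. Fragments were recovered from TPM, transcript length and the ERCC counts (100% of 162191 values within 0.05 of whole, against 22.9% by chance) and gave the depths and the tests with edgeR 4.0.16 and DESeq2 1.42.0. On simulated data of 10275 genes for 16 h against 8 h of FSK in Med14 S983A cells, limma recovered 95% of 2-fold and 100% of 3-fold changes with 1 wrong call. Only 200 genes were changed, in random directions, with a negative binomial dispersion of 0.003 for every gene. The broad shift between the times in the real libraries was not simulated, so these rates do not cover calls that depend on the scaling.

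The contrast, the 38 gene lists and the tests were chosen with earlier results of these data known. Named genes were Med14, the 12 largest rises and 12 largest falls above an average of 10 TPM, the 3 largest changes per list, the genes the study names, the 5 largest differences in each direction against WT and against Ex-4 above the same average, and the 10 most abundant genes. A few members of lists are named beyond this rule, and were chosen after their values were seen. Promoters came from RefSeq, assembly GRCr8. A few members of these lists that the rule names are not reported here, and list counts include them.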

Additional observations from a re-analysis of the deposited data

Results flagged for a closer look

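The change between 8 and 16 h of FSK differed between Med14 S983A and WT for 934 genes by the limma interaction term. The largest positive differences, on the log2(TPM + 1) scale, were those of Ppp1r17 (3.03), Dnph1 (1.65), Fosb (1.64), Zfp692 (1.52) and Plppr5 (1.48). Ppp1r17, an inhibitor of protein phosphatase 2A, fell in both genotypes, from 1.76 and 1.46 TPM to 0.075 and 0.184 TPM in Med14 S983A cells and from 41.2 and 42 TPM to 1.54 and 1.01 TPM in WT. Its difference was set largely by the pseudocount, since its Med14 S983A levels were near or below 1 TPM, and was 2.01 with a pseudocount of 0.1 TPM and 1.42 with edgeR on recovered fragments, still called. Dnph1, a nucleotide hydrolase, rose from 20.2 and 21.1 TPM to 50.7 and 58 TPM in Med14 S983A cells and was at 28.8 and 27.9 TPM, then 25.4 and 20.5 TPM in WT. Zfp692 likewise rose in Med14 S983A cells and had a WT value of 0.02.

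The largest negative differences were those of Nxph4 (−2.04), Enpp2 (−1.90), Ret (−1.87), Trib3 (−1.83) and Chac1 (−1.77). The value of Ret, which was also low, was −3.54 with edgeR. Nxph4, a neurexophilin, was at 20.9 and 22.9 TPM and then 20.4 and 23.4 TPM in Med14 S983A cells, while WT went from 5.7 and 6.88 TPM to 28 and 29.5 TPM. Chac1, a glutathione-degrading enzyme, was at 136 and 129 TPM, then 88.5 and 95.4 TPM in Med14 S983A cells, and rose from 29.1 and 31.6 TPM to 72 and 73.7 TPM in WT.

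Between agents, FSK minus Ex-4 in Med14 S983A cells, 2668 genes differed. The largest positive differences were those of Tspan17 (2.69), Rab26 (2.30), Dhrs1 (2.14), Stn1 (2.13) and Slc44a3 (2.12). Stn1, which binds telomeric DNA within the CST complex, was at 89.2 and 82.9 TPM in CON, 12.5 TPM in both libraries at 8 h of FSK and 52.5 and 56.6 TPM at 16 h, and between 62.3 and 67.4 TPM in the 4 Ex-4 libraries. The largest negative differences were those of Pdlim1 (−2.25), Ret (−2.09), Mir3547 (−2), Wif1 (−1.91) and Fgl2 (−1.74). Wif1, a secreted inhibitor of Wnt ligands, was at 360 and 351 TPM in CON, 95.1 and 93.9 TPM at 8 h of FSK and 23.9 and 26.5 TPM at 16 h, against 237 to 257 TPM under Ex-4. Mir3547 is a short hairpin transcript, and reads of an overlapping transcript cannot be told apart from its own. No group was screened for outlying samples, since each held 2 libraries.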

How the results depend on the processing

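Counts of called genes kept within 1.5 times of the reported ones with a pseudocount of 0.1 TPM, other filters, only the libraries of the contrast, and the replicate block, which gave 2870, 934 and 2668 calls. The labels' numbers do not pair the libraries, whose deviations correlated at 0.02 between the times. Leaving out 1 library gave 2801 to 2936 calls for 16 h against 8 h (2172 to 2232 higher, 599 to 725 lower), 880 to 1068 against WT (506 to 672, 343 to 421) and 2627 to 2733 against Ex-4 (2170 to 2285, 402 to 504). With 1 library left in a group, that library was assumed to vary like the other groups. Checks chosen after seeing the data repeated this on ERCC (3937 to 4903) and centred values (2511 to 2713).

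Scaling moved the balance of directions. For 16 h against 8 h, centring gave 1410 higher and 1187 lower, ERCC scaling 4355 (4098 and 257), DESeq2 with ERCC size factors 4898 (4592 and 306), edgeR 1326 lower and DESeq2 1315 lower, and no fold minimum 7827 (5212 and 2615). Against WT, no fold minimum gave 4864 (2863 and 2001) and edgeR 575 lower. Against Ex-4, centring gave 1197 and 919, ERCC scaling 5503 (5372 and 131), DESeq2 with ERCC size factors 5918 (5775 and 143), edgeR 1015 lower, DESeq2 1008 lower, and no fold minimum 6721 (5022 and 1699). Of the 658 falls, 401 were not called on ERCC, and of the 2212 rises, 802 were not called after centring.

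Named genes under the fold minimum changed sign. On ERCC scaling and DESeq2 with ERCC size factors, Grk3 was 0.034 and 0.0476, Mdh1 0.0672 and 0.0702, Sucla2 0.17 and 0.18, Ogdh 0.0342 and 0.0339, and Nxph4 0.31 and 0.33. After centring, with edgeR and with DESeq2, Osbpl6 was −0.12, −0.12 and −0.12, Sdhc −0.0649, −0.065 and −0.0624, Gcg −0.17, −0.18 and −0.17, Pdgfra −0.15, −0.12 and −0.12, and Scd2 −0.0365, −0.0367 and −0.034. Leaving out 1 library, Gcg ranged from −0.0628 to 0.0907, Pdgfra from −0.0061 to 0.0715 and Nxph4 from −0.1009 to 0.0894.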

Other observations

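Among genes of peptides secreted by neurons and the gut, Tac1, the precursor of substance P, was at 8.52 and 7.76 TPM in CON, at 300 TPM in both 8 h libraries and at 349 and 361 TPM at 16 h, a log2 difference of 0.24 between the times that was under the fold minimum. In WT the same difference was −1.07. Cck, the cholecystokinin precursor, fell from 638 and 663 TPM at 8 h to 412 and 430 TPM at 16 h, having been at 33.1 and 38.5 TPM in CON. Gast, the gastrin precursor, fell from 123 and 119 TPM to 60.6 and 60.2 TPM, and CON held 7.37 and 8.15 TPM. On ERCC scaling the fall of Gast was called and that of Cck was not.

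Genes of pyruvate dehydrogenase kinases, which inactivate the enzyme that feeds pyruvate into the citric acid cycle, moved in opposite directions. Pdk1 rose from 23.7 and 25.5 TPM to 47.4 TPM in both libraries, to above the 37.7 and 36.1 TPM of CON. Pdk3 fell from 104 TPM in both libraries to 57.3 and 56.8 TPM, below the 70.5 and 63.9 TPM of CON. The fall of Pdk3 was not called on ERCC scaling.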
